A study of Mus musculus with 6 samples.

Results

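The miR-138 arms are the mature miRNAs mmu-miR-138-5p, mmu-miR-138-1-3p and mmu-miR-138-2-3p, 3 of the 1978 known mouse miRNAs in the deposited count table. The rows were found by name, but the family was chosen by the hypoxia over control fold change of miR-138-5p in these same counts, so differences of the arms between the groups are given as a description without a p-value. Small RNA was sequenced from c-kit+ cardiac progenitor cells, cells of the heart that bear c-kit, the receptor of stem cell factor, taken by magnetic sorting from digested hearts of wild-type male C57BL/6 mice aged 4 to 6 weeks. The hypoxia group had 3 libraries of cells kept under hypoxia for 12 hours (titled Model), and the control group had 3 libraries labelled 0 hours (titled Control). The labels give hypoxia as the treatment of the control samples as well, so titles and times set the groups. Time in culture and hypoxia cannot be told apart if the control cells were not cultured equally long. No source used here gives the oxygen level, the number of animals or whether libraries came from separate cultures, so the spread between libraries may be technical. The RNA is described as exosomal in the extraction protocol and as cellular in the design text.

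A miRNA gene is transcribed as a hairpin, which is cut to a short duplex of a 5p and a 3p arm, and the arm that stays in the Argonaute protein guides the repression of mRNAs through its seed. In the mouse the same miR-138-5p guide is made from a pair of genes, Mir138-1 and Mir138-2, and only the 3p arms tell them apart. miR-138 is best known from the brain, where in rat neurons it limits the size of dendritic spines through the depalmitoylating enzyme Apt1, and in the zebrafish heart it is needed for the patterning of the chambers. The precursor of Mir138-2 was described in mice as widespread, with the mature miRNA restricted to few tissues.

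The mature arms are shown because the shared guide and the separate 3p arms decide what can be counted per gene. Sequences are from RefSeq on GRCm38.p6, 5′ to 3′, with the seed (bases 2 to 8) in capitals.
miR-138-5p: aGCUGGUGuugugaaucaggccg
miR-138-1-3p: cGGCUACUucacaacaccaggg
miR-138-2-3p: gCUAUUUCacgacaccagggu

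The 5p arm has 23 bases, the locus 1 arm 22 and the locus 2 arm 21. The 3p arms overlap over 20 bases, of which 18 are identical. The locus 2 arm starts at position 3 of the locus 1 arm, and the substitutions between them are C7U and A13G, counted from 1 at the 5′ end of miR-138-1-3p with its base first. Because of the shifted start and the first of these substitutions the 3p arms have different seeds. No other mature mouse miRNA in the RefSeq table, which held 1679 of the 1978 names counted here, had the seed of any of the 3 arms, so the family has no further members there.

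The hairpins show where the arms lie, with both arms in capitals.
Mir138-1: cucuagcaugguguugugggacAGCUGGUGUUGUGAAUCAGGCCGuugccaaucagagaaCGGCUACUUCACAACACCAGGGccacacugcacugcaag
Mir138-2: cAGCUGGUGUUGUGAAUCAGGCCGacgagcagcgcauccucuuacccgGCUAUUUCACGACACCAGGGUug

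Mir138-1 lies on chromosome 9, 122682876 to 122682974, on the plus strand of GRCm38, inside an exon of Gm47135, a transcribed pseudogene of GENCODE M21, and the nearest protein-coding gene is Topaz1, 64372 bases away. Mir138-2 lies on chromosome 8, 94324311 to 94324381, on the plus strand, inside an exon of the long noncoding RNA gene C78859, with Slc12a3 4820 bases away and Nup93 7084 bases away. Between the arms stand 15 bases in Mir138-1 and 24 in Mir138-2. The minimum free energy predicted by RNAfold was -45.5 kcal/mol for the 99 annotated bases of Mir138-1 and -29.3 kcal/mol for the 71 of Mir138-2, values that also differ because the annotated lengths do. In both folds 18 bases of the 5p arm were paired.

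Library totals ran from 13170756 to 16975987 counts in hypoxia and from 12285970 to 15166638 in control. Columns carry a digit and a letter. Those with 0 were taken as control, whose labels say 0 hours, and those with 1 as hypoxia, and all directions depend on this. Libraries are named by group and letter. All 15 pairs of libraries differed by far more than sampling noise (chi-square at least 85.9 times its degrees of freedom), so no library was a second copy of the same counts. This does not tell separate cultures from separate preparations. Levels are in CPM, the counts relative to library size after TMM scaling. Their exact 95% Poisson intervals cover counting error alone and take no account of PCR copies.

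miR-138-5p, the guide made by both genes, was the abundant arm. It had 1083, 1290 and 969 reads in hypoxia A, B and C, against 571, 694 and 654 reads in control A, B and C. Scaled, these were 65.1, 79.1 and 70.3 CPM in hypoxia and 46.2, 53.3 and 41.6 CPM in control. The groups did not overlap. The lowest hypoxia library, A, reached 65.1 CPM (61.3 to 69.1), and the highest control library, B, reached 53.3 CPM (49.4 to 57.5), so those counting intervals were also apart. The means were 71.5 ± 7.09 CPM in hypoxia and 47.1 ± 5.89 CPM in control (SD, n = 3 each). In edgeR without a block this was a log2 fold change of 0.60 (SE 0.20), or 1.52-fold. With the letter of the column as a block it was 0.61 (SE 0.12), and the log2 differences within letters were 0.49 (A), 0.57 (B) and 0.76 (C). By mean level miR-138-5p ranked 219th of the 1978 known miRNAs. In RNA from a bulk of cells, a change in the number of cells that make a miRNA and a change in its amount per cell cannot be told apart.

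miR-138-1-3p, the partner strand cut from Mir138-1, was sparse and also higher in hypoxia. It had 23, 32 and 25 reads in hypoxia A, B and C, against 9, 5 and 11 reads in control A, B and C. These were 1.38, 1.96 and 1.81 CPM in hypoxia and 0.729, 0.384 and 0.700 CPM in control. The groups did not overlap, but most counting intervals did. That of hypoxia A (0.876 to 2.07 CPM) overlapped those of all control libraries. That of control A (0.333 to 1.38 CPM) overlapped those of all hypoxia libraries, and those of hypoxia C and control C overlapped as well. The means were 1.72 ± 0.301 CPM in hypoxia and 0.604 ± 0.191 CPM in control (SD, n = 3 each). The log2 fold change was 1.49 (SE 0.42) in edgeR without a block and 1.498 (SE 0.51) with it. The summed counts, 80 in hypoxia and 25 in control, gave a scaled ratio of 2.81 (95% counting interval 1.78 to 4.60). The difference was uneven between letters, at 0.92 for A, 2.35 for B and 1.37 for C on the log2 scale, with control B the lowest library. Without the pair B the blocked log2 fold change was 1.12.

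miR-138-2-3p, the partner strand cut from Mir138-2, was at the limit of detection. It had 3, 2 and 0 reads in hypoxia A, B and C, against 1, 2 and 1 reads in control A, B and C. The groups overlapped. The summed 5 reads in hypoxia and 4 in control gave a scaled ratio of 1.10 (95% counting interval 0.237 to 5.54), so a difference of the size seen for either other arm was not detectable at this depth. The 0 reads of hypoxia C allow a level of up to 0.218 CPM at 3 counts, a one-sided limit, and the two-sided Poisson interval reaches 0.268 CPM.

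**Figure D1:**
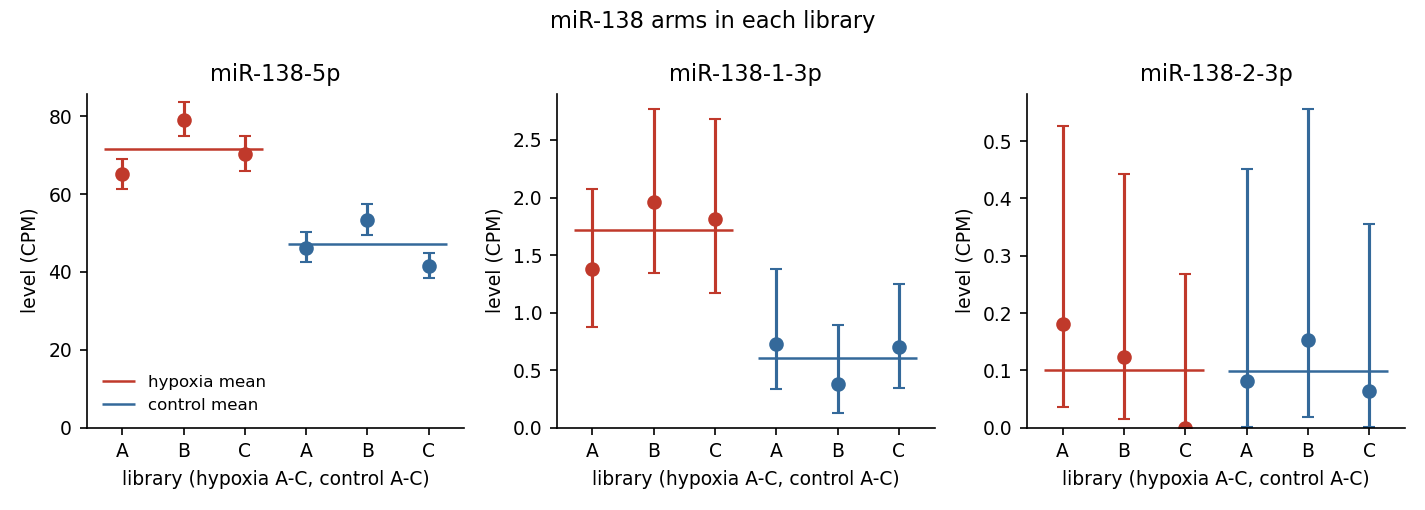
Levels of the 3 miR-138 arms (CPM, vertical axes starting at 0) in hypoxia libraries A to C (red, left) and control libraries A to C (blue, right); bars are exact 95% Poisson intervals and horizontal lines are group means. For miR-138-5p and miR-138-1-3p every hypoxia point lies above every control point, while for miR-138-2-3p, with 9 reads in all, the groups overlap.

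Of the 3 arms, 2 passed the filter on low counts. It asked for about 0.674 CPM in at least 3 libraries. miR-138-5p was over this in all 6 libraries, and miR-138-1-3p in all 3 hypoxia libraries but only 2 of the control libraries, so its place among the tested miRNAs rests partly on the group in which it was higher. miR-138-2-3p was over it in 0 libraries. Over the whole table edgeR called 0 of 619 tested miRNAs in either direction without a block (0%), with 42 (6.79%) at an unadjusted p under 0.05. limma-voom also called 0 (43 at that p) and DESeq2, fitted on 1322 miRNAs without the filter, called 1 (45 at that p). Blocked by letter, the edgeR fit called 14 (2.26%), of which 6 were higher in hypoxia (0.969% of those tested) and 8 lower (1.29%). miR-138-5p is 1 of those 6, which is the result that chose it, and nothing further is read from that call. Leaving out pair B turned the blocked count to 23, and leaving out pair A or pair C turned it to 0.

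Groups that did not overlap, with hypoxia the higher, occurred for 46 of the 619 tested miRNAs (7.43%), the opposite order occurred for 34 (5.49%), and 124 (20%) were higher in hypoxia in all 3 letters. Both tested arms are among the 46 and the 124. The median log2 fold change of all tested miRNAs was 0.01, with 317 (51.2%) above 0, and 95.2% of them had a lower value than miR-138-5p. For miR-138-1-3p that share was 99.2%, in a range of levels where fold changes of all miRNAs scatter widely.

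**Figure D2:**
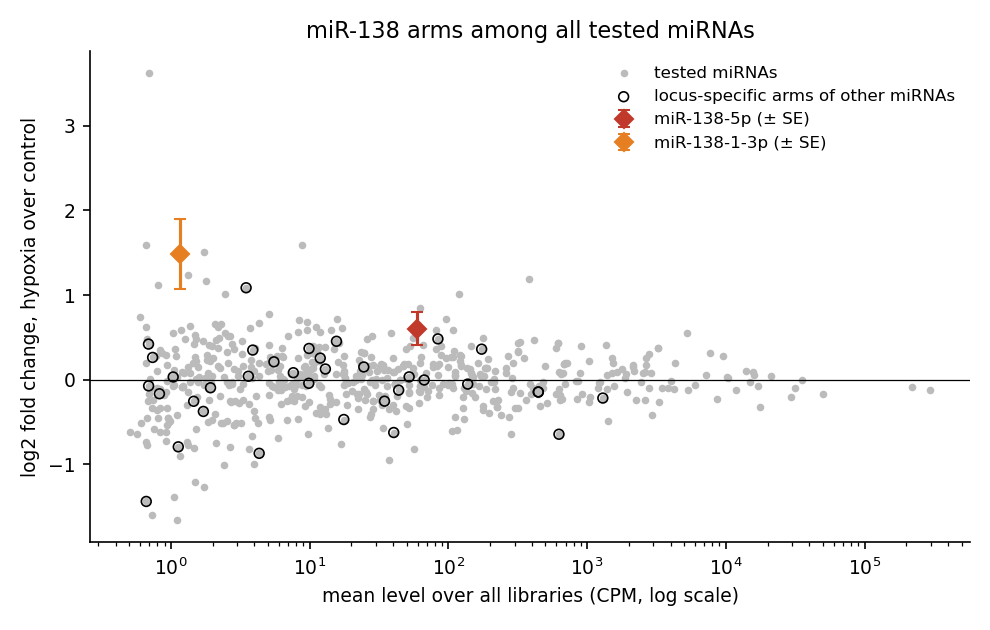
Log2 fold change of hypoxia over control against mean level (CPM, log scale) for the 619 tested miRNAs (grey), with miR-138-5p (red) and miR-138-1-3p (orange) and their SE, and the locus-specific arms of other miRNAs made from several genes as open circles. miR-138-5p stands at 0.60 and 59.3 CPM, and miR-138-1-3p at 1.49 and 1.16 CPM, where the grey points spread more.

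The 3p reads came mostly from Mir138-1. That arm made up 23 of 26 reads of both 3p arms in hypoxia A, 32 of 34 in hypoxia B and 25 of 25 in hypoxia C. In control it made up 9 of 10 reads in A, 5 of 7 in B and 11 of 12 in C. Locus 1 was thus ahead of locus 2 in all 6 libraries, with shares from 71.4% (exact Clopper-Pearson 95% interval 29.0 to 96.3) in control B to 100% (86.3 to 100) in hypoxia C. The log2 ratio of locus 1 to locus 2 arm counts, with 0.5 added to each, averaged 3.14 ± 1.49 (SD, n = 6), and a two-sided exact sign-flip permutation test over the 6 libraries gave p = 0.0312, the smallest it can give. Taken as means of the 3 lettered pairs, which share a letter across groups, the same exact test gave p = 0.25, again the smallest possible.

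By group, the locus 1 share of summed 3p reads was 94.1% (86.8 to 98.1) in hypoxia and 86.2% (68.3 to 96.1) in control, and these intervals overlap. The share describes 3p reads and not the guide. Reads of miR-138-5p cannot be assigned to either gene, and a gene whose 3p arm is kept less often would be under-counted here. Whether reads of one 3p arm were counted under the other is not known, since no source used here gives the mismatches that the authors allowed. All 5 pairs of names that share a sequence in the RefSeq table and had reads, let-7a-1-3p and let-7c-2-3p among them, had equal counts in all 6 libraries. For miR-138-5p the count was odd in 3 libraries, so its reads were not simply entered once for each of its 2 genes and summed.

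The summed 3p arms took a larger part of all miR-138 reads in the hypoxia libraries. This rests on the locus 1 arm, with 80 of the 85 3p reads in hypoxia and 25 of the 29 in control. The share of both 3p arms was 2.34%, 2.57% and 2.52% in hypoxia A, B and C. In control A, B and C it was 1.72%, 0.999% and 1.802%. The groups did not overlap, and within each library this ratio needs no scaling. How often the arm ratios of other miRNAs separate in this way was not measured. Within every letter the counting intervals of the hypoxia and the control library overlapped, as in B, at 1.78 to 3.57% and 0.402 to 2.05%. Summed over libraries, the share was 2.48% (exact Clopper-Pearson 95% interval 1.99 to 3.06) from 85 reads in hypoxia and 1.49% (0.999 to 2.13) from 29 reads in control, and these intervals, which cover counting error alone like all those on shares here, overlap slightly. Put the other way, miR-138-5p had 39.5 ± 1.95 reads for each 3p read in hypoxia and 70.2 ± 25.1 in control (SD, n = 3 each). The hypoxia libraries lay close together at 41.7, 37.9 and 38.8, while control B, with 7 reads of both 3p arms, stood at 99.1 and the other control libraries at 57.1 and 54.5. The log2 ratio of 5p to 3p differed by -0.73 between hypoxia and control, and by -0.46 without control B. Against the locus 1 arm alone the difference was -0.88. Against the locus 2 arm alone, with 5 reads in hypoxia and 4 in control, it had the opposite sign (0.92).

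**Figure D3:**
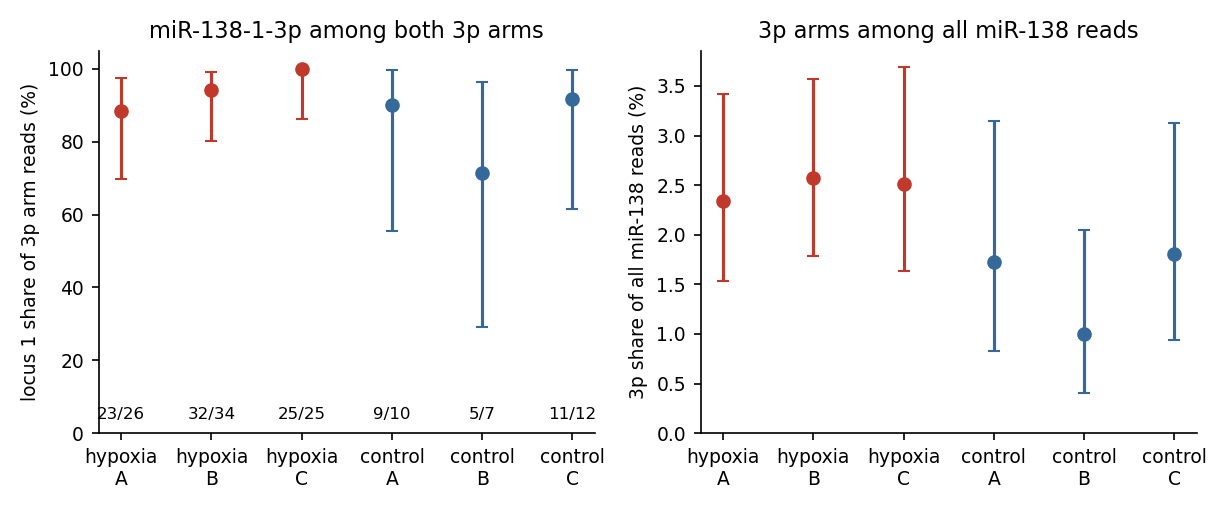
Left, share of the locus 1 arm among reads of both 3p arms (percent), with the reads behind it printed as locus 1 over both; right, share of both 3p arms among all miR-138 reads (percent); hypoxia libraries in red at the left of each panel, control libraries in blue, bars exact Clopper-Pearson 95% intervals. Locus 1 holds 71.4% or more in every library, and the 3p share is 2.34% to 2.57% in hypoxia and 0.999% to 1.802% in control.

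Other miRNAs made from several numbered genes gave a scale for these ratios. There were 25 besides miR-138 with at least 20 reads of their locus-specific arms. The leading locus held 92.1% (85.5 to 96.3) of such reads for miR-138 over all libraries, against a median of 93.6% for the 25 (range 56.0 to 100%), and 15 of the 25 were above miR-138. The best covered were miR-24, with 97.4% from locus 2, miR-125b, with 81.8% from locus 1, let-7c, with 91.7% from locus 2, and let-7a, with 99.8% from locus 1. The let-7a and let-7c shares are uncertain because of the equal counts above. For each read of the locus-specific arms the shared arm had 46.1 reads for miR-138, against a median of 32.7 for the 25 (range 0.196 to 5223), and 10 of the 25 were above it. Both values of miR-138 lay well inside the range of these miRNAs.

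miR-138-1-3p had a log2 fold change of 1.49, against a median of -0.04 (range -1.44 to 1.09) for the 35 tested locus-specific arms of these miRNAs, 16 of which were above 0. In 6 of the 35 the groups did not overlap with hypoxia the higher, where 7.43% of all tested miRNAs did so. In 4 of the 35 they did not overlap with hypoxia the lower, where 5.49% of all tested did so. The 35 include both let-7a-1-3p and let-7c-2-3p, whose counts were equal. The log2 fold change of miR-138-1-3p exceeded that of miR-138-5p by 0.89. For the 35 other arms the difference from their shared arm had a median of -0.12, and 1 of them was above miR-138. The arm of miR-138 was chosen with its values known and passed the filter partly through its hypoxia libraries, so these comparisons are a description only.

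The miRNAs most like miR-138-5p were sought by the root mean square difference of log2 CPM, each centred on its own mean over the 6 libraries, among 361 other miRNAs of at least 10 CPM. This measure contains the difference between groups that drew attention to miR-138-5p, so likeness in that difference is built in. The nearest was miR-101a-3p (0.14), a repressor of the histone methyltransferase Ezh2, with miR-101c beside it (0.14) on nearly the same counts. miR-107-3p (0.16), a miRNA from an intron of a pantothenate kinase gene, miR-34a-5p (0.18), a p53 target, and miR-324-5p (0.19) followed. The median over the 361 was 0.41. Levels of miR-101a-3p were 709 ± 26.0 CPM in hypoxia and 526 ± 69.8 CPM in control (SD, n = 3 each). Those of miR-107-3p were 167 ± 6.50 CPM in hypoxia and 126 ± 2.59 CPM in control, and those of miR-34a-5p 1027 ± 183 CPM in hypoxia and 778 ± 62.8 CPM in control. Their log2 fold changes, with that of miR-324-5p, ran from 0.40 to 0.44. Centred within each group, 0 of the 5 stayed among the nearest, whose place was taken by miR-27b-3p (0.05), let-7g-5p and miR-101b-3p (0.06 each). miR-138-1-3p, compared with all 618 other tested miRNAs, ranked only 370th (0.50). Its swings were wider than those of miR-138-5p, and the arms lay furthest apart in control B. There miR-138-5p had its highest control value (-0.12) and miR-138-1-3p, on 5 reads, its lowest (-1.15).

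**Figure D4:**
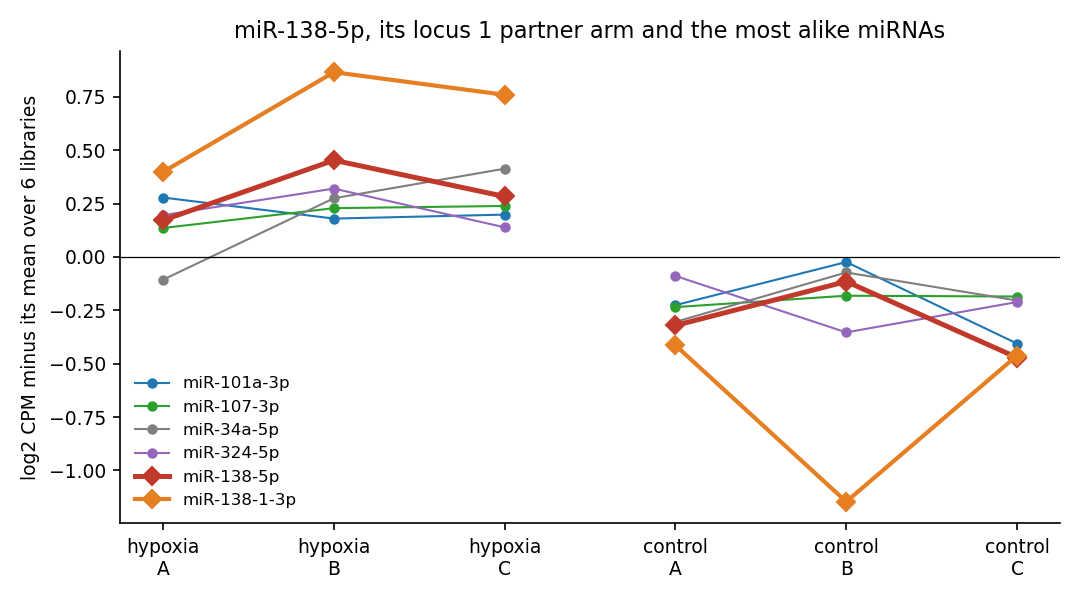
Log2 CPM minus its mean over the 6 libraries for miR-138-5p (thick red), miR-138-1-3p (orange) and the most alike miRNAs, in hypoxia libraries (left) and control libraries (right); lines join libraries of a group for reading only. miR-138-5p runs from 0.17 to 0.45 in hypoxia and from -0.47 to -0.12 in control, and miR-138-1-3p reaches -1.15 in control B.

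Because miR-138 is enriched in the brain, other neural miRNAs were measured beside it. All 16 of the list had reads and 13 were tested, of which 8 had a log2 fold change above 0 and 5 below, with a median of 0.08 beside 0.01 over all tested miRNAs. Without a block edgeR called 0 of them, as it did of all 619. With the block 0 were called higher and 1, miR-129-5p, lower, beside 0.969% higher and 1.29% lower of all tested miRNAs. In 1 of the 13 the groups did not overlap with hypoxia the higher, beside 7.43% of all tested miRNAs. In 1 they did not overlap with hypoxia the lower, beside 5.49% of all tested. The summed level of the list was 4030 to 5523 CPM in hypoxia and 4519 to 4914 CPM in control. Most of that came from miR-7a-5p (2962 ± 647 CPM in hypoxia, 2797 ± 61.9 CPM in control), miR-218-5p (1163 ± 372 CPM in hypoxia, 1245 ± 243 CPM in control) and miR-128-3p (397 ± 38.5 CPM in hypoxia, 424 ± 24.3 CPM in control; SD, n = 3 each). miR-129-5p stood at 91.5 ± 13.7 CPM in hypoxia and 137.7 ± 22.7 CPM in control. miR-9-5p stood at 30.4 ± 8.90 CPM in hypoxia and 26.8 ± 9.27 CPM in control. Its partner miR-9-3p stood at 10.4 ± 2.61 CPM in hypoxia and 6.36 ± 1.79 CPM in control (log2 fold change 0.71, SE 0.30, not called). The defining neuronal miRNA miR-124-3p was low, at 3.29 ± 2.63 CPM in hypoxia and 1.60 ± 0.933 CPM in control (SD, n = 3 each; log2 fold change 1.02, SE 0.72, not called), and miR-137-3p had 3 reads in all. miR-138-5p was thus above miR-124-3p in level and below 5 members of the list.

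Markers of other heart cell types were also measured, as the count table holds no c-kit mRNA. If the RNA was exosomal, as the extraction protocol says, their levels need not reflect the cells present. Of 6 cardiomyocyte markers 4 were tested and all 4 had a log2 fold change above 0 (median 0.54), none of them called with or without the block, with a summed level of 104 to 176 CPM in hypoxia and 77.2 to 172 CPM in control. Most of that came from miR-1a-3p, at 119 ± 27.9 CPM in hypoxia and 98.4 ± 47.3 CPM in control. miR-133a-3p followed, at 14.2 ± 6.39 CPM in hypoxia and 9.63 ± 3.51 CPM in control (SD, n = 3 each). The heart-specific miR-208a-3p and miR-208b-3p, the least abundant of the list and not tested, stood at 0.401 and 0.0814 CPM in hypoxia. In control they stood at 0.221 and 0.0424 CPM. The endothelial miR-126a arms summed to 200685 to 238090 CPM in hypoxia and 227224 to 249670 CPM in control. The 7 fibroblast and smooth muscle markers summed to 26922 to 50873 CPM in hypoxia and 26315 to 58005 CPM in control, with a median log2 fold change of 0.08 and 0 called. The 7 blood cell markers, 5 of them tested, summed to 42.6 to 56.8 CPM in hypoxia and 49.4 to 55.0 CPM in control, with a median of 0.03 and 0 called. In each list the ranges of the summed level overlapped between the groups. For single markers, 1 of the 4 tested cardiomyocyte markers had groups that did not overlap, with hypoxia the higher, beside 7.43% of all tested miRNAs. In the endothelial, fibroblast and smooth muscle, and blood cell lists 0 did so in either direction. The part of these cell types in the miR-138 values was not tested.

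Of the 20 miRNAs described elsewhere as regulated by hypoxia, all were tested and 14 had a log2 fold change above 0 (median 0.08). With the block 1 was called higher, miR-210-3p, the miRNA in the title of the study, and 0 lower, beside 0.969% higher and 1.29% lower of all tested miRNAs. The level of miR-210-3p was 528 ± 128 CPM in hypoxia and 232 ± 56.8 CPM in control (SD, n = 3 each). In the fit without a block the log2 fold change was 0.60 (SE 0.20) for miR-138-5p and 1.19 (SE 0.25) for miR-210-3p. In 5 of the 20 the groups did not overlap with hypoxia the higher, where 7.43% of all tested miRNAs did so, and in 0 with hypoxia the lower (5.49% of all tested).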

How the data were processed

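The deposited values were raw read counts per known mature miRNA, whole numbers in 1 column per library. Per the submitters' processing notes, bcl2fastq 2.0, DESeq2 and the build mm10 were used, with no role given. The aligner, counter and annotation release stand in no source used here. A table of predicted miRNAs, named without position, was not used. In R 4.3.3, edgeR 4.0.16 filtered rows (filterByExpr), scaled by TMM and ran its quasi-likelihood test over 619 miRNAs, with p adjusted by Benjamini-Hochberg and a threshold of 0.05. Each SE is the size of the log2 fold change over the square root of F. limma 3.58.1 (voom), DESeq2 1.42.0, other scalings and filters, a replicate block and left-out libraries were alternatives. RNAfold 2.7.2 folded the hairpins, and log2 CPM used a prior count of 2.

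Replicate numbers could not be tied to column letters. Deviations from group means correlated by 0.52 (A), 0.43 (B) and 0.28 (C) for same letters, over the limit of 0.1. For different letters they ran from -0.44 to 0.12, so hypoxia B with control C, at 0.12, also passed the limit. Deviations cancel out within each group, so positive values for same letters push those for different letters down, and the contrast is no independent check. By chi-square over its degrees of freedom, hypoxia A and C were nearest the control of their own letter. Hypoxia B was nearer control C (120) than control B (141). The letters were still taken as pairs, and every blocked value rests on this. That pairing comes from the column names and values, not from the labels.

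The members and all lists were chosen with earlier results of these data known. The naming rule allowed the 3 arms, the 5 nearest miRNAs of at least 10 CPM, and up to 4 of the most abundant members of the lists (neural, cardiomyocyte, endothelial, fibroblast and smooth muscle, blood cell, hypoxia-regulated) and of the miRNAs with several loci. Not all of these are named. The fibroblast and smooth muscle list and the blood cell list are given without single members. From the hypoxia-regulated list only miR-210-3p and miR-107-3p are named, and neither is among its most abundant. Neural and cardiac members beyond the rule, miR-210-3p and the miRNAs nearest within groups were named after their values were seen.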

Additional observations from a re-analysis of the deposited data

How the results depend on the processing

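The log2 fold change of miR-138-5p stayed between 0.50 and 0.68 over 19 alternatives and that of miR-138-1-3p between 1.12 and 1.79 over 18. The locus 1 share, as the mean of library shares, was 89.3% and stayed between 87.1% and 92.8% with single libraries left out. On the summed reads it was 92.1%. The 5p to 3p difference between groups ran from -0.87 to -0.46 when single libraries were left out. The mean within letters (replicate block), -0.73, equals the difference of group means by construction and is no separate check. Against the locus 2 arm alone, with 5 reads in hypoxia and 4 in control, the 5p to 3p difference was reversed (0.92). Hypoxia C had 0 reads of that arm, so its ratio rests on the 0.5 added to each count. Any further cause was not tested. The number of called miRNAs, 0 without a block, was 4 with no filter, 1 with DESeq2, 14 with the replicate block, 0 to 23 with libraries or pairs left out, and, added after seeing the data, 55 with the block and library size only and 64 with the block and no filter. Of the 5 miRNAs most like miR-138-5p, 0 remained when centred within groups and 3 when all tested miRNAs entered. The 3p arms rest on 114 reads, 9 of them of locus 2, which limits every ratio built on them.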
